A study of Mus musculus with 186 samples.

Results

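The 33 genes described here are markers of T cells and natural killer (NK) cells, chosen by name, and all 33 were found by symbol among the 22095 gene IDs of the count table. They cover the T cell receptor complex with its coreceptors, surface receptors, signalling proteins, costimulatory and inhibitory receptors, cytokine receptors, lineage transcription factors, cytotoxic products and NK cell receptors. All 33 passed the filter on low counts in lung and 31 passed in skin, where Gzmk and Ifng had too few reads. RNA was sequenced from lung (superior lobe) and from punch biopsies of skin in a mouse model of scleroderma, a disease in which skin and inner organs become fibrotic. Each tissue gave 93 libraries in 12 groups of 7 to 9.

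All mice were female C57BL/6 of 12 weeks. The bleomycin groups received 10 mg/kg/day by injection under the skin of the back between the shoulder blades. The stated schedule was 5 days of each week for 2 weeks, and the control groups received phosphate-buffered saline (PBS) in the same way. One schedule is given for all groups, although day 7 precedes the end of 2 weeks if days count from the first injection. Bleomycin is an antibiotic that breaks DNA and injures tissue. Groups of days 7 and 14 had no oral treatment. Groups of days 21, 28 and 42 had oral vehicle from day 12, with day 27 as the last dosing day, after bleomycin or after PBS. The day 21 groups were sampled before that last dosing day. A further bleomycin group on day 21 and on day 28 had SB525334 in place of vehicle, at 30 mpk by mouth, BID. SB525334 inhibits ALK5, the receptor kinase that carries the TGF-beta signal.

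T cells recognise peptides through a receptor whose CD3 chains pass the signal to the kinases LCK and ZAP70. The CD4 coreceptor marks helper and regulatory T cells and CD8 marks killer T cells, while FOXP3 sets the regulatory type that restrains the others. NK cells lack this receptor but share with killer T cells the granule proteins perforin and granzymes. Mouse epidermis also holds a resident population of gamma-delta T cells that carry CD3 and largely lack CD4 and CD8. In bulk tissue, fewer cells of a type and less RNA per cell cannot be told apart.

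Reference promoter sequences matched 26 of the 33 genes (RefSeq, build GRCm38.p6). The 250 bases before each start site were searched on both strands for 7 short motifs. The RUNX core TGTGGT, named for factors of which RUNX3 is known for its part in the killer T cell programme, was present in 9 of the 26 genes, against 14% of 32817 promoters of the same length. The genes were counted over all their start sites, 31 in all, of which 10 held the core, and counted in the same way 15.9% of 26994 genes held it. These 9 were Lck, Zap70, Trat1, Gzma, Gzmb, Prf1, Nkg7, Klrk1 and Ncr1. The ETS motif AGGAAGT was also present in 9 genes, against 7.69% of all promoters and 8.8% of all genes. The T-box core GGTGTGA was present in 3 genes, Trat1, Gzmk and Nkg7, against 3.33%. The NFAT core GGAAAA was present in 5 genes (20.4% of all promoters), the GATA motif AGATAA in 2 genes (9.99%), the TATA box TATAAA in 3 genes (12.4%) and the cAMP response half-site TGACG in 4 genes (17.7%). For 23 of the 31 start sites the bases after the start lay in a GENCODE M21 transcript of the gene, and those of Gzmb, Prf1 and Trat1 and 1 of Zap70 were among the other 8. A match describes letters and is not a shown binding site.

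The 180 bases before the start are printed, 5′ to 3′ on the gene's strand, for 4 cytotoxic or NK cell genes that carried the RUNX core and were called in opposite directions in the tissues on day 21, chosen after their values were seen, and for Pdcd1, which rose in both and had no match in its window. Nkg7 also met these criteria, with a borderline call in skin, and is not printed. The lung calls of Gzmb, Klrk1 and Nkg7 on that day were lost with the mean of the 5 PBS groups as control, described below. Capitals mark the RUNX core or its reverse complement, and 0 of these matches overlapped another of the motifs. The windows are chr13:113100982-113101161 (minus strand) for Gzma, chr14:56262335-56262514 (minus strand) for Gzmb, chr6:129623865-129624044 (minus strand) for Klrk1, chr7:4337535-4337714 (plus strand) for Ncr1 and chr1:94052554-94052733 (minus strand) for Pdcd1.
Gzma: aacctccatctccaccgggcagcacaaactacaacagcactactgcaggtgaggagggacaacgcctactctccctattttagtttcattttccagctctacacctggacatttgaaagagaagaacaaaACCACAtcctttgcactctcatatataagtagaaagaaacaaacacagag
Gzmb: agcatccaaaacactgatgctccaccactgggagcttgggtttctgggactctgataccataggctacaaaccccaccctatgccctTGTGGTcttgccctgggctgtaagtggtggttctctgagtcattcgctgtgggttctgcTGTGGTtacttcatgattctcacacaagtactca
Klrk1: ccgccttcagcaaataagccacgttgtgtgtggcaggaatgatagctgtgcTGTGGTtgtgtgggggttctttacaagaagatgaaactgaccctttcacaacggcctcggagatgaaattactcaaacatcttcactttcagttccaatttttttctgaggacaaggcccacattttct
Ncr1: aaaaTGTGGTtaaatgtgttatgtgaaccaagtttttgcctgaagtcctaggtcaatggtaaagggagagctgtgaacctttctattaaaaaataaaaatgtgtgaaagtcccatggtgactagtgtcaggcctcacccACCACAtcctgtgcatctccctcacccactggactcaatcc
Pdcd1: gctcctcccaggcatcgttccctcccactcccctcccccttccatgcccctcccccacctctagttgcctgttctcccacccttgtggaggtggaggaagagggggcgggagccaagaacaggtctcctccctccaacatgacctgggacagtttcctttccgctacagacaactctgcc

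The libraries held 4.79 to 38.3 M expected counts in lung and 14.7 to 43.1 M in skin. The summed level of 8 lung markers was 11260 to 71800 CPM (counts scaled to a common library total) in lung and 60.9 to 1005 CPM in skin, and that of 12 epidermis and hair markers was 3.60 to 4319 CPM in lung and 5948 to 27320 CPM in skin. In all, 19 lung libraries stood apart in composition. Of these, 10 were day 28 libraries rich in ribosomal protein transcripts (6 with SB525334, 3 with vehicle after bleomycin, 1 with PBS), 3 were PBS lungs of days 7 and 14 with epidermis and hair transcripts, 4 were rich in the transcript Gm10800, 1 held muscle and 1 held liver transcripts. Calls that were lost without them are named with the results. Replicate 6 of day 28 lung with vehicle after bleomycin was not among the 19. It held 0.647 CPM of Gm10800, against 8.15 to 37.0 CPM in the rest of its group. The PBS lungs of day 28 held 0.261 to 3.70 CPM. Its B cell marker sum was 277.1 CPM, against 118.1 to 164 CPM in its group and 134.5 to 305.1 CPM in those PBS lungs. It stayed in all day 28 lung fits, and the cause was not tested. Nothing in the labels says which lung and skin came from the same mouse, and p-values measure the spread between libraries as labelled.

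Levels below are CPM, and differences are log2 fold changes ± standard error (SE, an approximation) from a quasi-likelihood fit in edgeR over all groups of a tissue, with sequencing plate as a term. A gene is said to rise or fall where its Benjamini-Hochberg p-value, adjusted over all genes tested, was below 0.05. On day 7 in lung bleomycin raised 4 of the 33 genes and lowered 1, while 31.7% of all genes tested were called (13.9% higher and 17.8% lower). On day 14 5 rose and 8 fell (46.4% of all genes called, 21% higher and 25.4% lower), and on day 21 4 rose and 23 fell (35.3% called, 15.9% higher and 19.4% lower). On day 28 4 rose and 10 fell (38.1% called, 19.7% higher and 18.4% lower), and on day 42 3 rose and 0 fell (19.4% called, 12.6% higher and 6.77% lower). With the day 28 bleomycin and PBS groups of lung fitted alone in edgeR 0 of 31 genes were called, 14 had an unadjusted p below 0.05, and 0.814% of all genes were called. Without the lung libraries that stood apart 3 genes rose and 9 fell on day 28 (22.6% of all genes called), and the calls of Cd247, Cd8a, Ctla4, Tbx21, Gzmb and Ncr1 on that day were lost. In the same fit 3 rose and 9 fell on day 42 (24.4% of all genes called). With the mean of the 5 PBS groups as control, an alternative added once the values were known, 25 genes were called on day 14, 13 on day 21 and 7 on day 42, while the share of all genes called was 55.8%, 43% and 30.7% on these days. In the fit with each day's own PBS group the share called was above that of all genes on day 21 and slightly above it on day 28, and below it on days 7, 14 and 42. The median log2 fold change of the 33 genes in lung was 0.065 on day 7, -0.082 on day 14, -0.632 on day 21, -0.319 on day 28 and -0.101 on day 42, while that of all genes lay between -0.033 and 0.021.

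In skin most of these genes moved upwards. On day 7 26 of the 31 genes tested rose and 1 fell (46.2% of all genes called, 25.5% higher and 20.7% lower). On day 14 23 rose and 1 fell (59.6% called, 31.5% higher and 28.1% lower), and on day 21 24 rose and 1 fell (41.2% called, 20.2% higher and 21% lower). On day 28 8 rose and 1 fell (24.3% called, 12.7% higher and 11.6% lower), and on day 42 4 rose and 0 fell (10.2% called, 5.28% higher and 4.96% lower). The median log2 fold change was 1.556 on day 7, 1.131 on day 14, 1.218 on day 21, 0.44 on day 28 and 0.338 on day 42, and that of all genes lay between -0.036 and 0.023. With the bleomycin and PBS groups of a day fitted alone 5 of 26 genes were called on day 28 (19.8% of all genes) and 1 of 23 on day 42 (2.59% of all genes). The gene that fell on days 7, 14, 21 and 28 was Gata3 each time. Within each sequencing plate every called gene kept its sign, although on day 14 the first plate held 1 lung library per group and on day 28 the second held 2 per group.

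**Figure D1:**
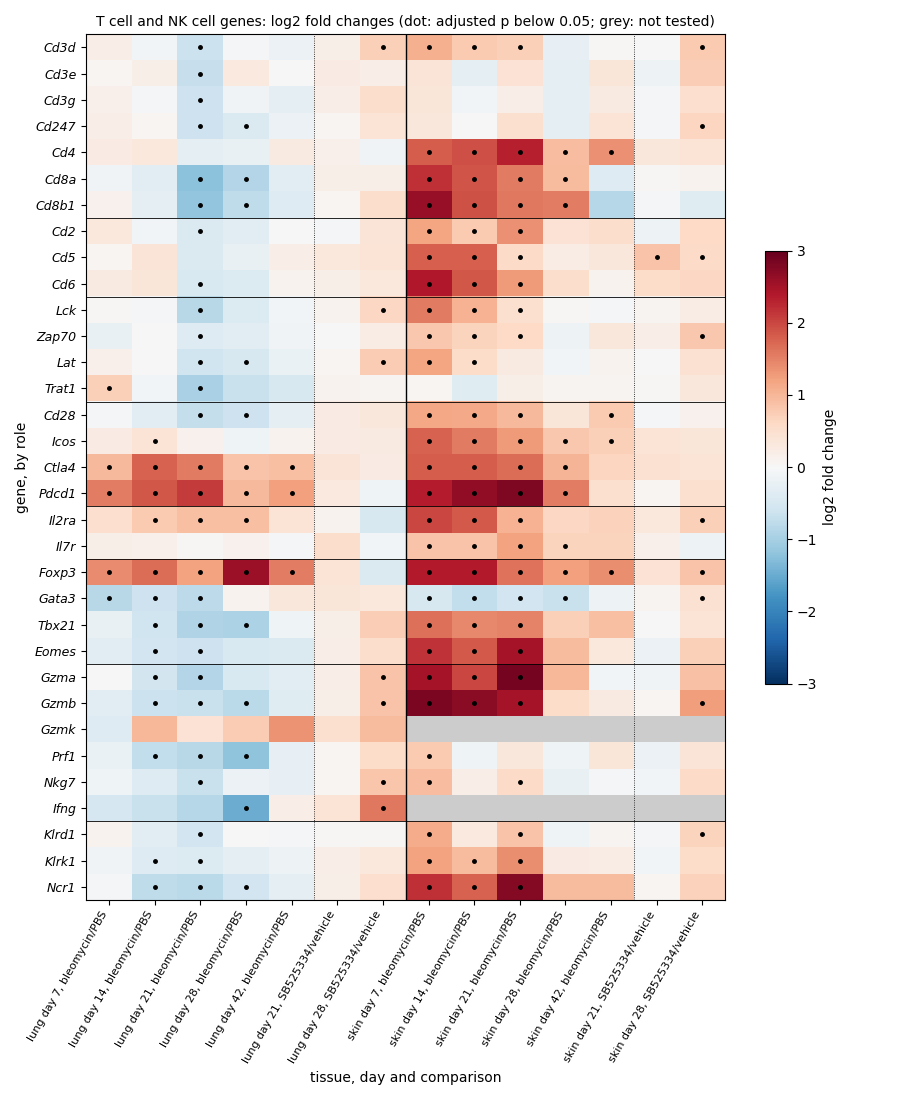
Log2 fold changes of the 33 genes (rows, grouped by role) in the 14 comparisons within lung and within skin (columns), with the colour scale ending at -3 and 3. Black dots mark an adjusted p below 0.05 and grey cells were not tested. Ctla4, Pdcd1 and Foxp3 are red for bleomycin over PBS in both tissues, whereas most other genes are blue in lung on day 21 and red in skin on days 7, 14 and 21.

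The difference between the tissues was tested directly, as the skin effect of bleomycin minus the lung effect. On day 21 it was called for 27 of 33 genes, all of them more positive in skin (30.1% of 16585 genes called, 13.5% more positive and 16.6% more negative). On day 7 the count was 22 (16.6% of all genes, 8.62% more positive and 7.98% more negative) and on day 14 it was 18 (32.3%, 15.6% and 16.7%), all more positive in skin. On day 28 9 were more positive and 1 more negative (26% of all genes, 10.6% and 15.4%), and on day 42 2 were more positive (12.1%, 4.98% and 7.13%). On day 21 the difference was 3.68 ± 0.55 for Gzma, 3.51 ± 0.48 for Ncr1, 3.11 ± 0.42 for Gzmb and 2.57 ± 0.32 for Cd4 (adjusted p = 4.50e-08, 3.74e-09, 2.27e-09 and 1.22e-10 in that order). The 6 genes without a called difference on day 21 were Ctla4, Pdcd1, Il2ra, Foxp3, Gata3 and Gzmk. For Ctla4 the skin-minus-lung value was 0.08 ± 0.35 and for Foxp3 0.36 ± 0.54. The lung part of the day 21 difference rests on the PBS lungs of that day, which were high in these genes, as given below. Against the mean of the 5 PBS groups the lung median on day 21 was -0.254 in place of -0.632. The difference between the tissues was not fitted with that control. Without the lung libraries that stood apart 4 genes were more positive and 1 more negative on day 28 (16.4% of all genes called). The gene more negative in skin on day 28 was Gata3, at -0.81 ± 0.29 (adjusted p = 0.0294). The 2 genes of day 42 were Cd4 at 1.10 ± 0.31 and Cd28 at 1.08 ± 0.30 (adjusted p = 0.00850 and 0.00909). Gzmk and Ifng, called on day 7, had almost no reads in skin, so the size of their differences depends on the fit.

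**Figure D2:**
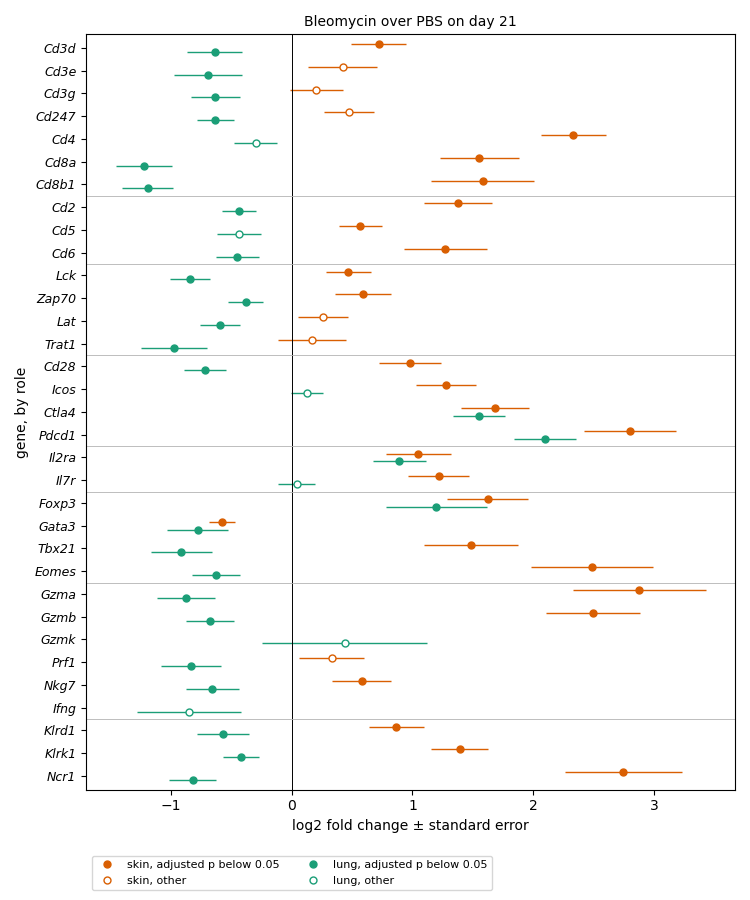
Log2 fold change of bleomycin over PBS on day 21 with its standard error (horizontal axis) for each gene (rows), in skin (orange, upper point) and lung (green, lower point). Filled points have an adjusted p below 0.05. The skin point lies to the right of the lung point for all 31 genes tested in both tissues, and Ctla4, Pdcd1, Il2ra and Foxp3 are filled and right of 0 in both.

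Among the costimulatory and inhibitory receptors, Ctla4 and Pdcd1 rose in lung on all 5 days. CTLA4 competes with CD28 for its ligands and restrains activation. In day 14 lung the lowest, median and highest Ctla4 levels were 2.58, 3.58 and 5.15 CPM after bleomycin, against 0.811, 1.03 and 1.57 CPM after PBS. On day 21 they were 3.43, 5.23 and 7.67 CPM after bleomycin, against 1.10, 1.47 and 2.85 CPM after PBS. The groups did not overlap on either day. The log2 fold changes were 0.96 ± 0.23, 1.76 ± 0.22, 1.55 ± 0.22, 0.86 ± 0.23 and 0.89 ± 0.21 on days 7, 14, 21, 28 and 42, with adjusted p between 2.07e-10 on day 14 and 0.00290 on day 28. Without the libraries that stood apart, the day 28 value was 0.69 with an adjusted p of 0.0820.

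In skin on day 14 Ctla4 was at 4.21, 7.92 and 11.3 CPM after bleomycin (lowest, median and highest), against 1.65, 2.18 and 2.80 CPM after PBS. Here too every bleomycin sample was above every PBS sample. The log2 fold change was 1.81 ± 0.28 on day 7, 1.83 ± 0.27 on day 14, 1.69 ± 0.28 on day 21 and 1.01 ± 0.30 on day 28. On day 42 it was 0.65 ± 0.28 and did not pass the test (adjusted p = 0.108).

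Pdcd1 encodes PD-1, an inhibitory receptor of activated T cells. On day 21 in lung its lowest, median and highest levels were 2.16, 3.19 and 4.93 CPM after bleomycin, against 0.451, 0.705 and 1.31 CPM after PBS. The groups did not overlap on days 7, 14 and 21. The day 21 change was 2.10 ± 0.26 (adjusted p = 4.49e-10), and on days 7, 14, 28 and 42 it was 1.54 ± 0.28, 1.86 ± 0.26, 0.98 ± 0.27 and 1.23 ± 0.25. In day 21 skin Pdcd1 was at 0.999, 1.09 and 1.91 CPM after bleomycin, against 0.113, 0.146 and 0.438 CPM after PBS. These groups were also apart, with a log2 fold change of 2.80 ± 0.38 (adjusted p = 1.61e-08). The skin change was 2.35 ± 0.36 on day 7, 2.67 ± 0.36 on day 14, 1.53 ± 0.43 on day 28 and 0.48 ± 0.43 on day 42 (adjusted p on day 42 = 0.459). The effect of day 42 minus that of day 21 was -2.32 ± 0.59 in skin and passed the test (adjusted p = 0.0105).

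Cd28, the main costimulatory receptor of T cells, and Icos, an inducible relative, lie beside Ctla4 on chromosome 1 (Cd28 at chr1:60716800-60773359, Ctla4 at chr1:60887000-60915832 and Icos at chr1:60977927-61000320, GENCODE M21 on GRCm38). The 3 neighbours did not share a direction in lung on day 21, where Cd28 fell by 0.71 on the log2 scale, Ctla4 rose, and Icos was at 0.13 and not called. Icos rose in lung on day 14, with 3.55, 4.28 and 5.27 CPM after bleomycin and 2.47, 3.34 and 4.10 CPM after PBS (0.42 ± 0.13, adjusted p = 0.00639). These groups overlapped. In skin all 3 genes rose on days 7, 14 and 21. In skin on day 7 Icos had 5.94, 12.5 and 17.1 CPM after bleomycin and 2.64, 3.80 and 6.51 CPM after PBS (1.76 ± 0.25, adjusted p = 2.36e-08). On day 28 in skin Icos rose and Cd28 was not called. Icos and Cd28 were higher in bleomycin skin on day 42, by 0.70 ± 0.24 and 0.78 ± 0.26 on the log2 scale (adjusted p = 0.0479 and 0.0387). Both calls were lost without the filter on low counts (0.0628 for Icos and 0.0512 for Cd28, adjusted p) and with the groups of that day fitted alone. Icos also lost its call without the plate term and with the replicate number as a block, and Cd28 against the mean of the 5 PBS groups (0.25, adjusted p = 0.410).

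Foxp3, on chromosome X (chrX:7573644-7595245), is the lineage factor of regulatory T cells. It rose on all 5 days in both tissues. On day 14 in lung its lowest, median and highest levels were 0.625, 0.782 and 1.29 CPM after bleomycin, against 0.0854, 0.255 and 0.633 CPM after PBS. On day 42 they were 0.448, 0.625 and 1.12 CPM after bleomycin, against 0.125, 0.227 and 0.433 CPM after PBS. The day 42 groups did not overlap, and on day 14 the highest PBS lung reached past the lowest bleomycin lung. The lung changes were 1.42 ± 0.47, 1.67 ± 0.42, 1.20 ± 0.42, 2.56 ± 0.46 and 1.53 ± 0.43 on days 7, 14, 21, 28 and 42. The day 28 value rests on a wide group, with 0.216, 2.01 and 4.65 CPM after bleomycin and 0.125, 0.281 and 0.783 CPM after PBS. Without the libraries that stood apart it was 2.56 with an adjusted p of 0.00011, and with the 2 groups of that day fitted alone it was 2.31 with an adjusted p of 0.0648.

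In skin Foxp3 was at 0.944, 2.76 and 3.91 CPM after bleomycin on day 7, against 0.329, 0.507 and 0.784 CPM after PBS. On day 14 it was at 1.34, 2.77 and 4.16 CPM after bleomycin, against 0.181, 0.470 and 0.675 CPM after PBS. The groups were apart on both days, with changes of 2.38 ± 0.33 and 2.37 ± 0.33 (adjusted p = 1.74e-08 and 3.01e-09). The change was 1.62 ± 0.33 on day 21, 1.22 ± 0.37 on day 28 and 1.39 ± 0.35 on day 42. As a ratio of read counts to the CD3 chain Cd3e, Foxp3 had a median on day 14 of 1.16 in bleomycin skin and 0.211 in PBS skin, and of 0.621 in bleomycin lung and 0.204 in PBS lung. Such a ratio shows unequal change of both genes and says nothing on cell numbers.

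**Figure D3:**
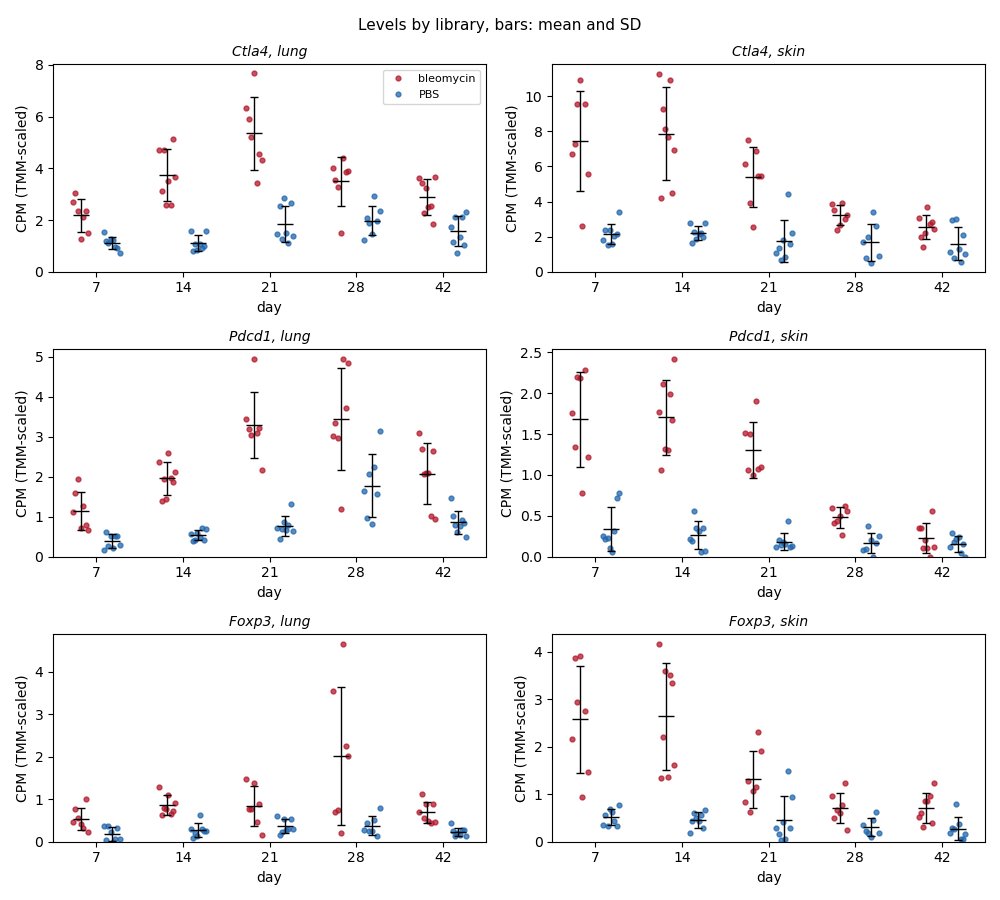
Level of Ctla4, Pdcd1 and Foxp3 (rows) in CPM by day in lung (left) and skin (right). Each point is a library, red for bleomycin and blue for PBS, and bars give the mean and SD of a group. The bleomycin mean in lung is higher on each day, with Ctla4 and Pdcd1 apart from PBS on days 14 and 21, and in skin Ctla4 and Pdcd1 differ least on day 42.

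Of the 7 genes of the receptor complex and coreceptors, 6 fell in lung on day 21, all but Cd4 (35.3% of all genes called, 19.4% lower). The Cd3e call was lost under another scaling (RLE), without the plate term and without the filter on low counts. The CD8 chains changed most among the 7. The lowest, median and highest Cd8a levels were 3.86, 4.49 and 5.89 CPM after bleomycin, against 7.61, 10.9 and 13.4 CPM after PBS. Cd8b1 was at 2.57, 3.43 and 4.40 CPM after bleomycin, against 6.46, 7.90 and 9.60 CPM after PBS. For both chains every bleomycin lung was below every PBS lung. The log2 fold changes were -1.22 ± 0.23 for Cd8a and -1.19 ± 0.21 for Cd8b1 (adjusted p = 2.00e-05 and 4.67e-06). On day 28 Cd8a was at -0.88 ± 0.25 (adjusted p = 0.00401), or at -0.65 with an adjusted p of 0.0567 without the libraries that stood apart. Cd4 was at 5.75, 7.44 and 9.22 CPM after bleomycin on day 21 and at 6.91, 9.52 and 10.5 CPM after PBS (-0.30 ± 0.18, adjusted p = 0.193).

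The PBS lungs of day 21 were high in these genes. The summed level of the 33 genes was 179.5 to 242.1 CPM in bleomycin lungs of day 21, with a median of 213.6 CPM, and 258.3 to 351.6 CPM in PBS lungs of day 21, with a median of 295.5 CPM. The PBS medians of days 7, 14, 28 and 42 were 213.7, 193.5, 253.1 and 256.2 CPM. With the mean of the 5 PBS groups as the control for day 21, 6 genes rose and 7 fell, and 43% of all genes were called. Of the 27 genes called against the PBS lungs of that day 11 were still called, and the calls of Cd3d, Cd3e, Cd3g, Cd247, Cd2, Cd6, Zap70, Lat, Trat1, Cd28, Eomes, Gzmb, Prf1, Nkg7, Klrd1 and Klrk1 were lost. The 7 were Cd8a at -0.65, Cd8b1 at -0.76, Lck at -0.37, Gata3 at -0.71, Tbx21 at -0.77, Gzma at -0.47 and Ncr1 at -0.47. Gzmb was at -0.25 (adjusted p = 0.207) and Cd3d at -0.29 (adjusted p = 0.206). Against the same control 4 genes rose and 21 fell on day 14, when 55.8% of all genes were called.

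Markers of other cell types in day 21 lung are given beside these results, where 35.3% of all genes were called (15.9% higher and 19.4% lower). The sum of 10 B cell markers was 110.0 to 198.2 CPM after bleomycin and 258.2 to 513.4 CPM after PBS, and 9 of the 10 fell and 0 rose. The sum of 8 red blood cell markers was 2236 to 11300 CPM after bleomycin and 4092 to 13740 CPM after PBS, with 0 of 8 called by edgeR. The sum of 9 thymocyte markers was 2.57 to 5.62 CPM after bleomycin and 5.00 to 39.3 CPM after PBS, and 4 of the 4 tested fell. Of the defining thymocyte markers, Rag1 reached 1.03 CPM after bleomycin and 23.2 CPM after PBS, while Ptcra was at 0 in 3 of 7 bleomycin lungs and 4 of 8 PBS lungs. Ptprc, the common leukocyte antigen, was at 337.5 to 440.6 CPM after bleomycin and 394.6 to 511.0 CPM after PBS. The part of these cells in the fall of the T cell and NK cell genes was not tested.

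In skin the coreceptors rose. On day 7 Cd8a was at 2.74, 3.57 and 4.14 CPM after bleomycin (lowest, median and highest), against 0.321, 0.758 and 1.22 CPM after PBS. There was no overlap of the groups (2.19 ± 0.31, adjusted p = 1.73e-08). The change was 1.88 ± 0.30 on day 14, 1.55 ± 0.32 on day 21 and 0.94 ± 0.35 on day 28, and -0.39 ± 0.33 on day 42 (adjusted p on day 42 = 0.439). The day 28 call was lost once hair and muscle sums were added as terms (0.89, adjusted p = 0.0539). It was lost as well without the plate term and against the mean of the 5 PBS groups. The day 28 call of Cd8b1 was lost with hair and muscle terms and against that mean. Cd8b1 was at 2.61 ± 0.41 on day 7 and at -0.86 ± 0.47 on day 42 (adjusted p = 0.209 on day 42). For both chains the effect of day 42 was lower than that of day 21, with a difference of -1.95 ± 0.47 for Cd8a and -2.44 ± 0.64 for Cd8b1 (adjusted p = 0.00696 and 0.0129).

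Cd4 rose in skin on all 5 days. On day 21 it was at 10.5, 16.8 and 36.7 CPM after bleomycin, against 1.38, 4.01 and 6.28 CPM after PBS (2.33 ± 0.27, adjusted p = 1.92e-10). On day 42 it was at 4.99, 9.34 and 11.7 CPM after bleomycin, against 1.20, 3.59 and 4.65 CPM after PBS (1.37 ± 0.26). On both days the groups did not overlap, and 1 bleomycin sample of day 21 stood above the others. The sum of 12 macrophage markers in skin on day 21 was 3038 to 5307 CPM after bleomycin and 745.5 to 2619 CPM after PBS, and the part of these cells in the Cd4 level was not tested. The sum of skeletal muscle markers also differed, at 3281 to 11440 CPM after bleomycin and 8.60 to 2467 CPM after PBS. With hair and muscle sums as terms the day 21 Cd4 change was 2.10 (adjusted p = 4.55e-09), and the calls of Cd3d, Zap70, Cd28 and Nkg7 on that day were lost.

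The CD3 chain Cd3d rose in skin on days 7, 14 and 21 (1.06 ± 0.23, 0.79 ± 0.22 and 0.72 ± 0.23). Cd3e, Cd3g and Cd247, which encode the other CD3 chains, were called in bleomycin against PBS skin on none of the 5 days, with log2 fold changes on day 7 of 0.40 ± 0.28, 0.37 ± 0.22 and 0.33 ± 0.21. Between the tissues, the mean level in PBS skin was 1.22 times that of PBS lung for Cd3g, 1.09 times for Cd3e and 2.50 times for Trat1, an adaptor of the receptor complex. For Cd8a and Cd8b1 it was 0.0745 and 0.0446 times that of PBS lung. These ratios of CPM are descriptions and were not tested.

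Per kilobase of exon, the highest levels in PBS lung were those of Gzma at 30.2, Cd2 at 11.5 and Nkg7 at 8.98 CPM per kb. The lowest was Foxp3 at 0.0625 CPM per kb. In PBS skin the order was led by Gata3 at 19.9, Nkg7 at 3.32 and Cd3g at 2.94 CPM per kb, and Gzmk was at the end.

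The surface receptors CD2, an adhesion molecule, and CD5 and CD6, scavenger-type receptors that tune the signal, all rose in skin on days 7, 14 and 21. On day 14 Cd5 was at 5.37, 6.92 and 8.85 CPM after bleomycin, against 1.45, 1.94 and 2.82 CPM after PBS. There was no overlap of the groups (1.79 ± 0.17, adjusted p = 1.70e-14). On day 7 Cd6 was at 2.00, 4.30 and 6.36 CPM after bleomycin, against 0.252, 0.668 and 2.05 CPM after PBS (2.40 ± 0.34). In day 21 lung Cd2 and Cd6 fell by 0.44 and 0.45 on the log2 scale, and Cd5 was at -0.43 without passing the test (adjusted p = 0.0537). Against the mean of the 5 PBS groups Cd2 was at -0.19 and Cd6 at -0.03, and neither was called. Cd6 also lost its call under RLE scaling, without the plate term, without the filter on low counts and on the deposited log2 table.

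Among the signalling genes, Lck encodes the kinase bound to the coreceptors. In lung on day 21 its lowest, median and highest levels were 8.62, 10.2 and 12.5 CPM after bleomycin, against 15.8, 19.2 and 21.7 CPM after PBS. Every bleomycin lung was below every PBS lung (-0.84 ± 0.17, adjusted p = 3.45e-05). On day 7 in skin Lck was at 6.28, 9.76 and 12.4 CPM after bleomycin, against 2.63, 3.37 and 4.28 CPM after PBS. There the groups were apart in the other direction (1.56 ± 0.19, adjusted p = 2.99e-10). Zap70, the kinase recruited to the CD3 complex, and the adaptors Lat and Trat1 fell in lung on day 21 as well, by 0.38, 0.59 and 0.97 on the log2 scale. The Zap70 call was lost under RLE scaling, without the plate term and without the filter on low counts. In skin Zap70 rose on days 7, 14 and 21 and Lat on days 7 and 14, while Trat1 was not called on any of the 5 days. Trat1 rose in lung on day 7 (0.71 ± 0.28, adjusted p = 0.0427), a call that was lost without the libraries that stood apart (0.32, adjusted p = 0.497). It was also lost with DESeq2, without the plate term, with the replicate number as a block and on the deposited log2 table. The groups of that day fitted alone and the mean of the 5 PBS groups as control did not give it either.

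Of the cytokine receptors, Il2ra encodes the high-affinity chain of the interleukin-2 receptor, present on regulatory and activated T cells. In day 21 lung it was at 1.83, 2.70 and 3.66 CPM after bleomycin, against 1.10, 1.46 and 1.98 CPM after PBS. Of the bleomycin lungs, 6 of 7 were above every PBS lung (0.89 ± 0.22, adjusted p = 0.00086). It also rose in lung on days 14 and 28. In skin on day 7 Il2ra was at 1.61, 8.04 and 13.4 CPM after bleomycin, against 1.21, 1.92 and 2.77 CPM after PBS (2.00 ± 0.27), and 6 of 7 bleomycin samples were above every PBS sample. Il7r, the receptor for the survival factor interleukin-7, was not called in lung on any day. In skin it rose on days 7, 14, 21 and 28, with 1.22 ± 0.25 on day 21. The day 28 call was borderline (0.67 ± 0.26, adjusted p = 0.0497) and was lost without the filter on low counts, without the plate term, with the replicate number as a block and with the groups of that day fitted alone (adjusted p of 0.0627 to 0.139).

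The other lineage factors are GATA3 of helper type 2 cells, also made by epidermis and hair follicles, and T-bet (Tbx21) and EOMES of killer and NK cells. On day 14 in skin Gata3 was at 42.6, 47.2 and 67.6 CPM after bleomycin, against 65.0, 84.2 and 100.5 CPM after PBS. Of the bleomycin samples, 7 of 8 were below every PBS sample (-0.75 ± 0.10, adjusted p = 4.31e-09). On days 7, 21 and 28 Gata3 fell by 0.48, 0.58 and 0.67 on the log2 scale. The sum of 12 epidermis and hair markers on day 14 was 13130 to 22530 CPM after bleomycin and 8105 to 10080 CPM after PBS. With hair and muscle sums as terms the day 14 change of Gata3 was -0.68 (adjusted p = 1.29e-06). In PBS skin Gata3 averaged 79.2 CPM, 17.3 times its 4.59 CPM in PBS lung.

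In lung Gata3 was called lower on days 7, 14 and 21. The 3 PBS lungs of days 7 and 14 with epidermis and hair transcripts held 11.8, 15.6 and 15.8 CPM, whereas the other PBS lungs of those days held 2.94 to 5.06 CPM. Without the libraries that stood apart the change was -0.17 on day 7 and -0.08 on day 14 (adjusted p = 0.402 and 0.609), and -0.77 on day 21 (adjusted p = 1.08e-06). Tbx21 and Eomes fell in lung on days 14 and 21 and rose in skin on days 7, 14 and 21. In day 21 skin Eomes was at 0.600, 0.816 and 1.53 CPM after bleomycin, against 0.0460, 0.193 and 0.329 CPM after PBS. These groups did not overlap (2.49 ± 0.51, adjusted p = 5.74e-05).

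Among the cytotoxic genes, Gzmb encodes granzyme B, a protease that triggers death of target cells. In skin on day 7 it was at 3.33, 7.26 and 11.1 CPM after bleomycin (lowest, median and highest), against 0.360, 0.689 and 2.47 CPM after PBS. On day 14 it was at 4.11, 7.00 and 8.69 CPM after bleomycin, against 0.168, 0.728 and 2.92 CPM after PBS. The groups did not overlap on these days nor on day 21. The changes were 2.82 ± 0.37, 2.70 ± 0.36 and 2.49 ± 0.39 on days 7, 14 and 21 (adjusted p = 2.96e-09, 1.11e-09 and 3.83e-07). On days 28 and 42 they were 0.55 ± 0.40 and 0.27 ± 0.41 and did not pass the test (adjusted p = 0.350 and 0.687).

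In lung Gzmb took the opposite direction. On day 14 it was at 2.60, 3.19 and 4.56 CPM after bleomycin, against 3.51, 5.46 and 6.35 CPM after PBS (-0.65 ± 0.19, adjusted p = 0.00456). On day 21 it was at 4.60, 5.02 and 6.74 CPM after bleomycin, against 6.83, 7.93 and 10.9 CPM after PBS (-0.68 ± 0.20, adjusted p = 0.00505). The groups overlapped on day 14 and were apart on day 21. Gzma, which encodes granzyme A, was at 16.4, 21.7 and 24.3 CPM after bleomycin in lung on day 21, against 29.8, 37.7 and 54.2 CPM after PBS (-0.88 ± 0.24, adjusted p = 0.00231). On day 21 in skin Gzma was at 0.981, 1.81 and 7.70 CPM after bleomycin, against 0, 0.227 and 1.41 CPM after PBS (2.88 ± 0.55, adjusted p = 1.95e-05). The lung groups did not overlap and the skin groups did. Granzymes are a family of similar genes, and reads shared among them were divided by the estimated counts, so single members carry that uncertainty.

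Perforin (Prf1), which forms pores in target cells, fell in lung on days 14, 21 and 28. On day 28 it was at 0.589, 2.67 and 7.92 CPM after bleomycin, against 2.87, 7.87 and 9.23 CPM after PBS (-1.21 ± 0.27, adjusted p = 0.0004). The groups overlapped. In skin Prf1 rose on day 7 (0.79 ± 0.27), and Nkg7, a protein of the granule membrane, rose on days 7 and 21 (0.92 ± 0.24 and 0.58 ± 0.24). The day 21 call of Nkg7 was borderline (adjusted p = 0.0483). DESeq2 also called it, and it was lost in each of the other 8 alternatives, with an adjusted p of 0.0533 under RLE scaling and 0.294 with hair and muscle sums as terms. Ifng, the gene for interferon gamma, had few reads in lung and fell on day 28, with 0, 0.151 and 0.591 CPM after bleomycin and 0.188, 0.295 and 1.63 CPM after PBS (-1.48 ± 0.50, adjusted p = 0.0153). Gzmk, another granzyme gene, was not called in lung in any comparison.

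Of the NK cell receptors, Ncr1 encodes NKp46, found mostly on NK cells. In day 21 lung it was at 4.20, 5.90 and 7.09 CPM after bleomycin, against 8.42, 9.98 and 13.3 CPM after PBS (-0.82 ± 0.20, adjusted p = 0.00059). In skin on day 21 it was at 1.04, 1.66 and 4.23 CPM after bleomycin, against 0, 0.164 and 0.628 CPM after PBS (2.75 ± 0.48, adjusted p = 4.15e-06). The groups were apart in both tissues, in opposite directions. The lectin receptor genes Klrk1 (NKG2D) and Klrd1 (CD94) fell in lung on day 21 by 0.42 and 0.57 on the log2 scale. Against the mean of the 5 PBS groups they were at -0.17 and -0.37 and neither was called (adjusted p = 0.231 and 0.0760), and Klrd1 also lost its call without the filter on low counts (adjusted p = 0.0532). On day 21 in skin they were higher after bleomycin, at 1.39 ± 0.24 and 0.87 ± 0.23. The RUNX core shown above was present in Klrk1 and Ncr1 and in both granzyme genes, and the data here do not bear on binding.

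**Figure D4:**
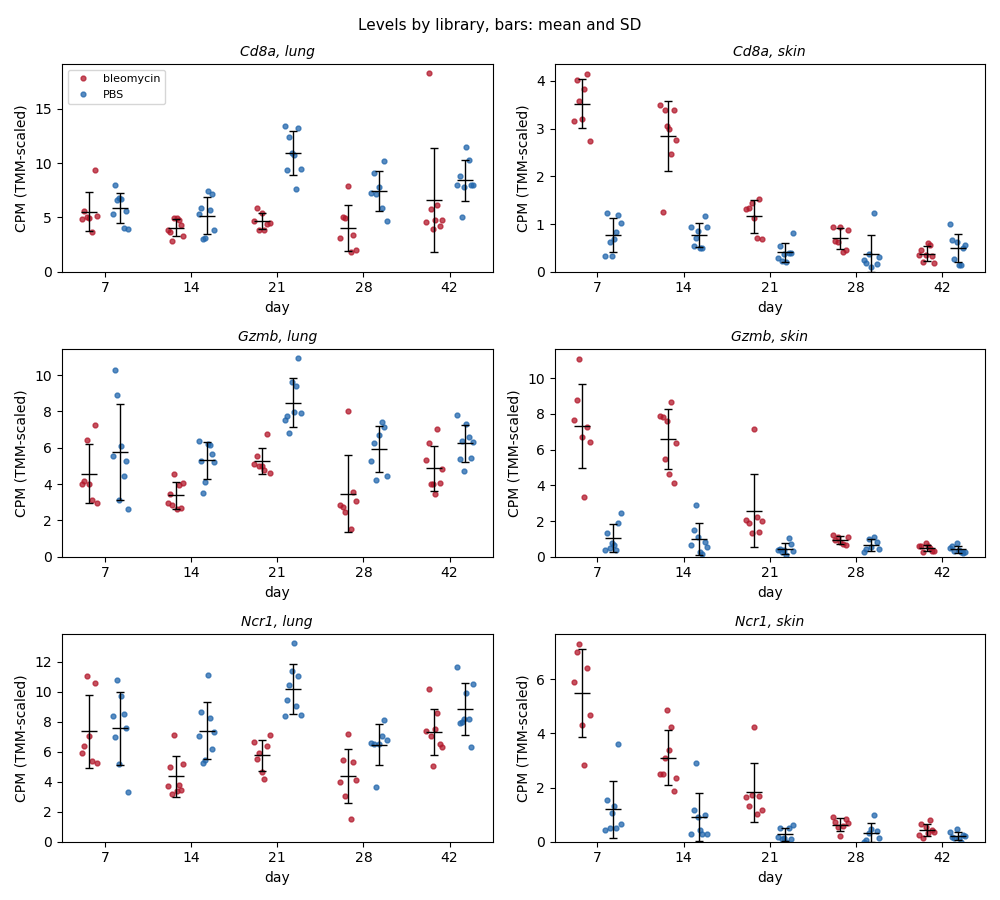
Level of Cd8a, Gzmb and Ncr1 (rows) in CPM by day in lung (left) and skin (right). Each point is a library, red for bleomycin and blue for PBS, and bars give the mean and SD. In day 21 lung the bleomycin libraries lie below PBS without overlap for all 3 genes, and in skin on day 21 they lie higher, without overlap for Gzmb and Ncr1. The Cd8a library at 18.3 CPM in day 42 bleomycin lung is the one with liver transcripts.

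The day 42 bleomycin lung with liver transcripts also held a B cell marker sum of 1241 CPM and a sum of the 33 genes of 374 CPM. With all libraries 3 genes rose and 0 fell in lung on day 42, and without the libraries that stood apart 3 rose and 9 fell (24.4% of all genes called). The bleomycin effect of day 42 minus that of day 21 was called in lung for 2 of the 33 genes (7.52% of all genes called, 5.71% more positive and 1.82% more negative), Lck at 0.76 ± 0.23 and Gata3 at 1.12 ± 0.35. Both rest on the PBS lungs of day 21, which were high in the 33 genes, and were not fitted with another control. In skin the effect of day 42 minus that of day 21 was called for 6 (5.86%, 2.35% more positive and 3.51% more negative), all more negative on day 42. Beside Pdcd1 and both CD8 chains these were Gzma at -2.96 ± 0.82, Gzmb at -2.22 ± 0.57 and Klrk1 at -1.16 ± 0.33.

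Further genes of the same pathways gave the following counts. Of all genes tested, 35.3% were called in lung on day 21 (15.9% higher and 19.4% lower). In skin 46.2% were called on day 7 (25.5% higher and 20.7% lower) and 41.2% on day 21 (20.2% and 21%). Of 22 other T cell lineage and receptor signalling genes 0 rose and 18 fell in lung on day 21, among them the T cell transcription factors Lef1 (-1.31 ± 0.19) and Tcf7 (-0.83 ± 0.12). In skin 21 were tested, of which 15 rose and 0 fell on day 7 and 16 rose and 2 fell on day 21. The homing receptor Ccr7 was at 2.36 ± 0.32 on day 7. The 2 that fell in skin on day 21, named after their values were seen, were Lef1 and Tcf7, at -2.10 ± 0.57 and -0.87 ± 0.17. Both factors are also active in hair follicles, whose part was not tested, and the epidermis and hair sum on that day was 7211 to 20290 CPM after bleomycin and 8441 to 27320 CPM after PBS.

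Of 20 other cytotoxic and NK cell genes 1 rose and 10 fell in lung on day 21, and in skin 15 rose and 0 fell on day 7 and 13 rose and 0 fell on day 21. The shares of all genes called were 35.3%, 46.2% and 41.2% in that order. The lung counts rest on the same PBS lungs of day 21 and were not examined with another control. The gene that rose in lung was Serpinb9b (1.70 ± 0.24), a serpin that inhibits proteases. Il2rb, which encodes the shared chain of the interleukin-2 and interleukin-15 receptors, was at -0.54 ± 0.15 in lung on day 21 and at 1.49 ± 0.23 in skin on day 7. Klrc1, an inhibitory NK cell receptor gene, was at 1.64 ± 0.25 in skin on day 7.

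Of 13 tested regulatory T cell and checkpoint genes outside the 33, 6 rose and 1 fell in lung on day 21. In skin 10 rose and 0 fell on day 7. Of all genes tested 35.3% were called in day 21 lung, 46.2% in day 7 skin and 41.2% in day 21 skin. Tnfrsf9, the costimulatory receptor 4-1BB, had 3.38, 4.51 and 5.95 CPM after bleomycin in lung on day 21, against 1.02, 1.44 and 1.65 CPM after PBS (1.74 ± 0.23), and it was at 2.10 ± 0.25 in skin on day 7. The ligands of the receptors described here were also mostly higher, with 9 up and 1 down of 13 in lung on day 21 and 9 up and 0 down in skin on day 7. Cd80 and Cd86, which encode the ligands of CD28 and CTLA4, were at 0.80 ± 0.17 and 0.95 ± 0.15 in lung on day 21 and at 1.72 ± 0.28 and 1.19 ± 0.22 in skin on day 21. Macrophage markers rose beside them, 11 of 12 in lung and 11 of 12 in skin on day 21, and their part in the ligand levels was not tested.

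Cxcl10, an interferon-induced chemokine that attracts activated T cells, was higher after bleomycin in both tissues. In skin on day 7 it was at 12.9, 36.6 and 59.9 CPM after bleomycin, against 1.34, 3.32 and 9.07 CPM after PBS (3.24 ± 0.42, adjusted p = 2.45e-09). On day 21 in lung it was at 2.77, 8.23 and 11.3 CPM after bleomycin, against 0.909, 1.25 and 2.11 CPM after PBS (2.48 ± 0.42). The groups did not overlap in either case. Of the 19 lymphocyte-attracting and sustaining factors tested in lung 7 rose and 1 fell on day 21, and of the 18 tested in skin 8 rose and 1 fell on day 7. Of all genes tested 35.3% were called in lung on day 21 (15.9% higher and 19.4% lower) and 46.2% in skin on day 7 (25.5% and 20.7%). The factors called in either direction exceeded the total shares only slightly, while most of those called were higher.

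The comparison of SB525334 with vehicle asked what ALK5 inhibition changed after bleomycin. Its vehicle group is also the bleomycin group of the comparisons above, so the values are given side by side. In day 21 lung 0 of 33 genes were called by edgeR (0.403% of all genes called), and 1 had an unadjusted p below 0.05. On day 28 7 genes rose in lung and 0 fell (8.37% of all genes called, 2.64% higher and 5.73% lower). These were Cd3d, Lck, Lat, Gzma, Gzmb, Nkg7 and Ifng.

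In lung on day 28 Lat was at 8.31, 12.7 and 26.3 CPM after SB525334, against 4.45, 7.58 and 12.9 CPM after vehicle (0.76 ± 0.17, adjusted p = 0.00230). Gzmb was at 4.35, 6.15 and 8.25 CPM after SB525334, against 1.53, 2.88 and 8.03 CPM after vehicle (0.87 ± 0.21, adjusted p = 0.00567). The groups overlapped for both genes. For Gzmb the bleomycin effect of that day was -0.80 ± 0.21. That call was lost without the libraries that stood apart (-0.67, adjusted p = 0.0593) and with the bleomycin and PBS groups fitted alone (-0.83, adjusted p = 0.1002). Of the libraries compared for the inhibitor, 6 of 8 with SB525334 and 4 of 7 with vehicle stood apart in composition. Without the libraries that stood apart 1 gene was called, Gzma at 1.22 with an adjusted p of 0.0422, and 1.01% of all genes were called. The median log2 fold change of the 33 genes was 0.618 in that fit and 0.398 with all libraries. Its day 28 libraries were SB525334 replicates 7 and 8 and vehicle replicates 3, 6 and 7. Vehicle replicate 6 is the library whose Gm10800 level lay among those of PBS lungs, and its highest-of-group Gzmb level was 8.03 CPM. With both groups fitted alone in edgeR 0 of 30 genes were called and 10 had an unadjusted p below 0.05, while 0% of all genes tested were called.

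On day 21 in skin SB525334 raised 1 of 31 genes and lowered 0 (11.8% of all genes called, 5.81% higher and 6.02% lower). That gene was Cd5, with 4.26, 5.36 and 6.34 CPM after SB525334 and 2.18, 2.76 and 3.63 CPM after vehicle. There was no overlap of the groups (0.85 ± 0.17, adjusted p = 0.00036). On day 28 9 of 31 rose and 0 fell (23.9% of all genes called, 12.2% higher and 11.6% lower), and the median log2 fold change was 0.558, against 0.001 for all genes. The 9 were Cd3d, Cd247, Cd5, Zap70, Il2ra, Foxp3, Gata3, Gzmb and Klrd1. The calls of Il2ra, Foxp3 and Klrd1 were lost without the plate term (adjusted p = 0.110, 0.153 and 0.0509 in that order), with the replicate number as a block and on the deposited log2 table, and those of Il2ra and Foxp3 also without the filter on low counts.

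In day 28 skin Zap70 was at 2.16, 2.44 and 3.59 CPM after SB525334, against 1.16, 1.44 and 1.93 CPM after vehicle (0.82 ± 0.23, adjusted p = 0.00621). Cd3d was at 1.70, 2.00 and 3.30 CPM after SB525334, against 0.746, 1.29 and 1.55 CPM after vehicle (0.79 ± 0.23, adjusted p = 0.00890). For both genes the groups did not overlap. Gata3 was at 51.4, 64.8 and 81.9 CPM after SB525334, against 34.2, 46.6 and 64.0 CPM after vehicle (0.46 ± 0.11, adjusted p = 0.00092). Gzmb was at 1.08, 2.11 and 4.30 CPM after SB525334, against 0.668, 0.951 and 1.23 CPM after vehicle (1.25 ± 0.37, adjusted p = 0.00959). These groups overlapped. For Gata3 the bleomycin effect of that day was -0.67 ± 0.11 and for Gzmb 0.55 ± 0.40. The macrophage marker sum was 2880 to 4614 CPM after SB525334 and 2355 to 3271 CPM after vehicle, and its part was not tested. With hair and muscle sums as terms 14 genes rose on day 28 (31.9% of all genes called) and 11 on day 21 (22.1% of all genes called). With the compared groups fitted alone 16 of 28 genes rose on day 28 (35.9% of all genes called) and 3 of 31 on day 21 (16.2%).

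**Figure D5:**
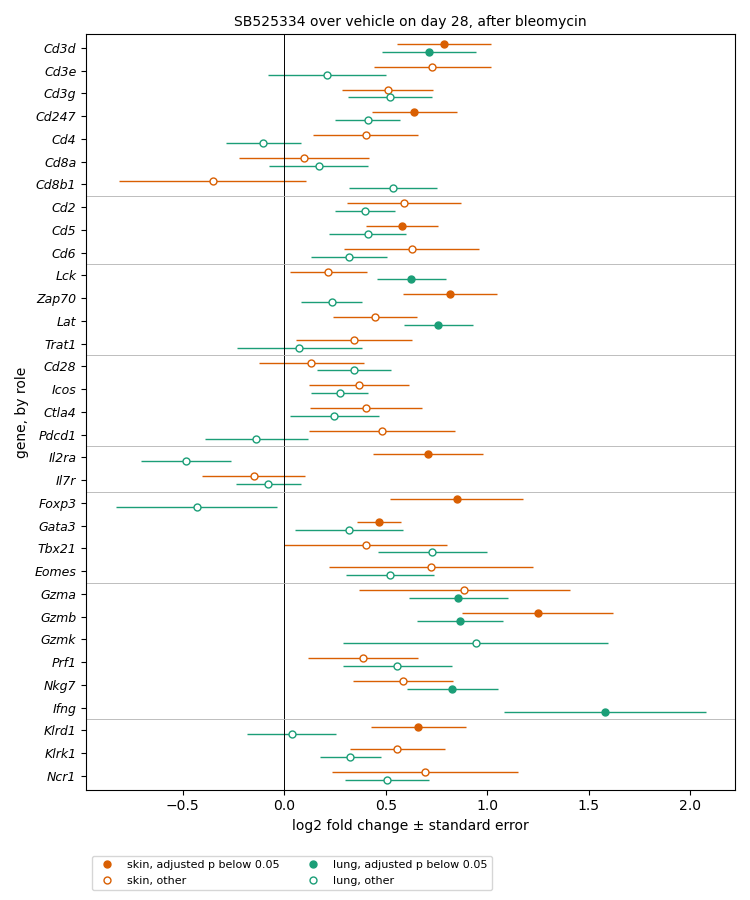
Log2 fold change of SB525334 over vehicle on day 28, after bleomycin, with its standard error (horizontal axis) for each gene (rows), in skin (orange, upper point) and lung (green, lower point). Filled points have an adjusted p below 0.05. The 9 filled skin points and the 7 filled lung points all lie right of 0.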

How the data were processed

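RNA-seq of 186 libraries was used, 93 per tissue, grouped by the titles. The deposited table holds expected counts per gene; the submitters' processing notes name RSEM, edgeR and GRCm38, while versions, annotation and strand setting were not stated there. A second table by the authors holds log2 CPM of expressed protein-coding genes, corrected for plate per its name, used as an alternative. Of the expected counts 83.7% were whole; all were rounded, filtered by group (15647 genes in lung, 15825 in skin), TMM-scaled and fitted with edgeR 4.0.16 (R 4.3.3) with a plate term, one fit per tissue and one over both tissues (16585 genes). The SE was approximated as the absolute log2 fold change divided by the root of F. No 2 libraries held identical values. Alternatives used DESeq2 1.42.0 and limma 3.58.1, other scaling and filtering, and fits chosen after seeing the data. Genes were described in full where they had one of the 4 smallest p-values of a comparison or the smallest of their role; further ones are given by single values. At most 3 genes per other list and comparison were named by p-value. Members and lists were chosen with earlier results of these data known. Promoters came from RefSeq tables of GRCm38.p6. Cd2, Cd28, Cd4, Cd6, Cd8b1, Icos and Klrd1 had no entry.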

Additional observations from a re-analysis of the deposited data

Results flagged for a closer look

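Of 120 gene and group pairs examined for 24 named genes, 15 held a library whose gap to the next one was large for its group by Dixon's criterion, 14 high and 1 low. For normally spread values the criterion flags about 1 in 20 groups. CPM need not be spread in this way and the pairs were picked by p-value, so that rate may not apply here. In lung the flagged values were Cd2 at 29.8 CPM in PBS replicate 2 of day 21 (next 24.1) and Foxp3 at 0.633 CPM in PBS replicate 5 of day 14 (next 0.306). Gzmb was at 8.03 CPM in bleomycin replicate 6 of day 28 (next 3.55). Il2ra was at 1.98 CPM in PBS replicate 6 of day 21 and at 5.22 CPM in PBS replicate 2 of day 28 (next 2.14). SB525334 replicate 3 of day 28 was high for both Lat at 26.3 CPM (next 13.3) and Lck at 28.4 CPM (next 19.5). That library and PBS replicate 2 of day 28 are among the lung libraries rich in ribosomal protein transcripts. Bleomycin replicate 6 of day 28 is the library whose Gm10800 level lay among those of PBS lungs.

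In skin Cd3d was at 3.30 CPM in SB525334 replicate 5 of day 28 (next 2.21). Cd4 was low at 10.3 CPM in bleomycin replicate 4 of day 14 (next 19.1) and high at 36.7 CPM in bleomycin replicate 7 of day 21 (next 18.9). Ctla4 was at 11.8 CPM in SB525334 replicate 7 of day 21 (next 8.70) and at 4.44 CPM in PBS replicate 5 of day 21 (next 2.20), the same library in which Pdcd1 was at 0.438 CPM (next 0.206). Foxp3 was at 0.790 CPM in PBS replicate 6 of day 42 (next 0.378), and Gzmb was at 7.17 CPM in bleomycin replicate 1 of day 21 (next 2.24).

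The bleomycin effect differed between the tissues, by the test of the difference itself, for 22 genes on day 7, 18 on day 14, 27 on day 21, 10 on day 28 and 2 on day 42. It differed between days 42 and 21 for 2 genes in lung and 6 in skin.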

How the results depend on the processing

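Of 1485 values of called genes under the alternatives, 1363 kept their direction and call, 122 kept their direction and lost the call, and 0 reversed. Of 171 counts of called genes 152 stayed within 1.5 times the reported count, and the other 19 follow. With the compared groups fitted alone, 0 genes were called in lung on day 28 (0.814% of all genes). In skin 5 and 1 were called on days 28 and 42 (19.8% and 2.59%). SB525334 gave 1 and 0 in lung on days 21 and 28 (5.92% and 0%) and 3 and 16 in skin (16.2% and 35.9%). Without the lung libraries that stood apart the count was 12 on day 42 (24.4% of all genes). In that fit SB525334 gave 1 on day 21 (2.2%) and 1 on day 28 (1.01%), and skin minus lung gave 5 on day 28 (16.4%). With the mean of the 5 PBS groups as control they were 25 on day 14, 13 on day 21 and 7 on day 42 in lung (55.8%, 43% and 30.7% of all genes). Hair and muscle terms gave 11 and 14 for SB525334 in skin on days 21 and 28 (22.1% and 31.9% of all genes). These 3 kinds of fit were chosen after seeing the data. The deposited log2 table gave 7 in skin on day 42 (8.16% of all genes) and 1 in lung for day 42 minus day 21 (4.42%). No filter on low counts gave 2 in skin on day 42 (6.18%). The cause was not tested.

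Within a tissue, same-numbered libraries of 2 compared groups did not deviate together throughout. Correlations of their deviations ran from -0.602 to 0.716, and in 0 of 14 comparisons was every pair over 0.1. Same-numbered lung and skin libraries were not compared in this way, so a pairing between the tissues was not tested. With the replicate number as a block, 4, 12, 28, 14 and 3 genes were called in lung on days 7, 14, 21, 28 and 42. Of all genes 30.1%, 44.8%, 34.2%, 36.3% and 18.1% were called on these days. In skin the counts were 27, 24, 24, 8 and 3, against 45.1%, 59%, 40.2%, 23.4% and 9.06% of all genes. SB525334 gave 0 and 7 in lung on days 21 and 28 (0.262% and 6.72% of all genes). In skin it gave 1 and 6 (11.5% and 22.5%). In the same block fit skin minus lung gave 22, 17, 27, 10 and 2 (15.5%, 31%, 28.8%, 24.2% and 10.6% of all genes). Depth, down to 4.79 M counts in lung, limits Foxp3, Ifng and Gzmk, which have few reads.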
